A study of Mus musculus with 2 samples.

Results

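The 7 genes described here, Tmprss6, Trf, F12, Fabp3, Lyl1, Necab2 and Gm4956, had a lower signal on the RFF4 array than on the Control array. Among them are iron, protease and regulator genes, a fatty acid carrier gene, a calcium-binding protein gene and a transcribed pseudogene. They were chosen by that measured difference, as genes lower on the RFF4 array outside the adhesion and transporter groups, from 20887 named genes. The differences between the arrays are therefore a description of how they were chosen, and no test of them is given. The 7 genes are read by 9 probes, 2 each for Trf and Fabp3 and 1 for each of the others, and each probe has 1 spot per array.

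RNA came from sorted TCRαβ+CD8αα+ intraepithelial lymphocytes (IELs) of the small intestine of C57BL/6 mice, T cells that lie between the epithelial cells of the gut and carry the CD8αα homodimer. The Control array holds Rbpjf/f cells and the RFF4 array holds CD4-Cre Rbpjf/f cells, so that by these labels both share the floxed Rbpj allele and differ by Cre under the CD4 promoter, which acts in T cells. The study's text instead describes the controls as Rbpj+/+ mice that carry CD4-Cre, calls the deleted mice Rbpj-/- and gives an age range that ends earlier than that of the labels, and these conflicts could not be settled here. RBPJ is the DNA-binding factor through which Notch receptors act on their target genes. By the labels, male and female mice of 8 to 12 weeks were pooled, the RNA of several isolations was pooled, and 150 ng was labeled for 1 array per genotype. With 1 array per genotype there is no replicate error, no test and no p-value, and mouse-to-mouse variation cannot be told apart from the genotype.

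Tmprss6 and Trf belong to the handling of iron. Matriptase-2, the product of Tmprss6, is a serine protease of the hepatocyte membrane that cleaves hemojuvelin and so lowers the iron hormone hepcidin, and transferrin, the product of Trf, carries iron in plasma to the transferrin receptor. F12 encodes coagulation factor XII, the protease zymogen that starts the contact pathway, and Fabp3 encodes the fatty acid-binding protein of heart and skeletal muscle. LYL1 is a basic helix-loop-helix (bHLH) transcription factor of blood progenitors that binds DNA with E proteins, and NECAB2 is a neuronal EF-hand calcium-binding protein. Gm4956 is listed by RefSeq as a transcribed pseudogene and has no assigned function here.

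Levels are log2 signals after subtraction of background, relative to each array's 75th percentile over gene spots, so a level of 0 is the signal of that percentile. Differences are given as RFF4 minus Control on this log2 scale. A probe is called well above background where the scanner software marks it so. A probe that is not on the RFF4 array has only a bound there, set against the higher of its own level and the lowest level well above background, −4.29. Levels of different probes are not comparable with each other.

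On the Control array 33915 of 59305 gene spots (57.2%) were well above background, and 29494 (49.7%) were on the RFF4 array. The median signal over these was 9.47 and 5.78 times the local background. The pooled SD between spots of the same probe, over probes spotted repeatedly, was 0.12 and 0.11, which gives a technical SD of 0.16 for a difference. Rbpj, the targeted gene, was not lower on the RFF4 array, with levels of 1.96 and 2.28 and a difference of 0.32 at its brighter probe and of 0.82 at the other. This difference turned to −0.80 after setting the spike-in controls of both arrays equal. The position of these probes against the floxed exons is not given in the sources used here, so RFF4 is used below as the label of the array. Heyl and Dtx1, known Notch targets, had differences of −3.80 and −3.63.

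The set of promoter sequences used here, of build GRCm38.p6, covers 4 of the 7 genes. These 250 bases before the start are shown because the comparison is one of RBPJ. That the genes were all lowered follows from how they were chosen. Capitals mark the E-box letters CANNTG, the kind of site that bHLH factors such as LYL1 bind.
Fabp3 (chr4:130308488-130308737, plus strand): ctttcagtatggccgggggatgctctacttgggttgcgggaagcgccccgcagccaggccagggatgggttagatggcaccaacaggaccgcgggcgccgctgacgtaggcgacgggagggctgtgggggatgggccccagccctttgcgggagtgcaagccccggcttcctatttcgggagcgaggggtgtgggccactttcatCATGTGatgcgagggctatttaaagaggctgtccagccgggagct
Lyl1 (chr8:84701207-84701456, plus strand): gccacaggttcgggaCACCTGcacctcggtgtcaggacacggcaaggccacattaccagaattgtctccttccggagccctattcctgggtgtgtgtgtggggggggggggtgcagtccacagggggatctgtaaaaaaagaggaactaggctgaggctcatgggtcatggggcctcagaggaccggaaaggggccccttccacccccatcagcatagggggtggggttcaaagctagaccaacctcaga
Necab2 (chr8:119446469-119446718, plus strand): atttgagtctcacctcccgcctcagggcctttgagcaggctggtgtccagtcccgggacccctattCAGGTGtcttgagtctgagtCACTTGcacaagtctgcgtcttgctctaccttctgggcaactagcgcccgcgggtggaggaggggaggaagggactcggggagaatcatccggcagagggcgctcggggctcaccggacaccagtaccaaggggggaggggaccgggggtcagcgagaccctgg
F12 (chr13:55426805-55427054, minus strand): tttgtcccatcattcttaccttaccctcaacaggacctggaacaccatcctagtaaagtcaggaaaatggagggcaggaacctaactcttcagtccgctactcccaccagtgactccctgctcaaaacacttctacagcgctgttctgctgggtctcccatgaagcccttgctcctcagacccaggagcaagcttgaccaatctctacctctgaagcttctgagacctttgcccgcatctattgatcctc
The core of the RBPJ motif, TGGGAA, was searched on both strands and was in 0 of these 4 windows, and so was its longer form with a preceding G. Over all 32851 promoter windows of the same length, 21.6% held the core and 5.42% the longer form. The E-box letters, which read the same on both strands, were in 3 of the 4 windows and in 66.2% of all windows. Their matches began 45 bases before the start in Fabp3, 235 bases before it in Lyl1, and 184 and 164 bases before it in Necab2. A match is only a description of these letters, and no match concerns this window alone. GC content was 64.8% in the Fabp3 window, 60% in Lyl1, 64% in Necab2 and 51.2% in F12, beside a median of 52.4% over all windows. Promoters of Tmprss6, Trf and Gm4956 and the protein sequences were not analysed here.

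Of the iron genes, Tmprss6 had a background-subtracted signal of 5561 on the Control array and 282 on the RFF4 array. Its levels were 3.45 and 0.31, a difference of −3.13 or 8.78-fold lower. The RFF4 spot was still 7.76 times its local background, at a brightness of 357 over 46, and its probe passed the background call on each array.

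Trf had a signal of 35825 on the Control array and 3485 on the RFF4 array at its brighter probe, which put its levels at 6.14 and 3.94. This is a difference of −2.19 or 4.57-fold lower, the smallest of the 7. The other Trf probe went from a signal of 11863 to 1043, a difference of −2.34 or 5.06-fold lower. The probes differed by 0.15 log2 units, less than the technical SD of a difference. Over the 2906 genes with 2 probes that give a difference, the median gap between the probes was 0.19.

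F12, the contact protease, went from a signal of 837 to 56.9 and from a level of 0.72 to −1.99. The difference was −2.71 or 6.54-fold lower, and the RFF4 spot stood 2.27 times above its local background, at 93 over 41. With normexp background correction, which adds an offset of 50 and draws dim signals together, its difference was −1.85, short of 4-fold.

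Fabp3, the fatty acid carrier, was well above background on the Control array and not well above background on the RFF4 array at both probes. The signals of the brighter probe were 215 and 10.5, with an RFF4 spot at a brightness of 51 over a local background of 41. The bound puts it at least 8.27-fold lower, a difference of −3.05, from measured levels of −1.25 and −4.44. The other probe had signals of 161 and 2.82, with levels of −1.66 and −6.33. Its RFF4 brightness of 40 did not exceed its local background of 41, and the bound is at least 6.20-fold lower. With normexp background correction the bound of the brighter probe was only −1.01, short of 4-fold.

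Lyl1, the bHLH regulator, went from a signal of 2930 to 147 and from a level of 2.52 to −0.62. The difference was −3.14 or 8.83-fold lower, and the RFF4 spot was 4.31 times its local background. Necab2, the calcium-binding protein, went from a signal of 1483 to 81.1 and from a level of 1.54 to −1.48. Its difference was −3.02 or 8.13-fold lower, at 3.21 times local background on the RFF4 array.

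Gm4956 had the largest difference of the 7. Its signal was 11988 on the Control array and 435 on the RFF4 array, with levels of 4.56 and 0.94. It was 12.3-fold lower, at −3.61, and its RFF4 spot was 11.9 times its local background. The sequences of the probes were not used here, so which related transcripts the Gm4956 probe could also bind was not analysed.

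**Figure D1:**
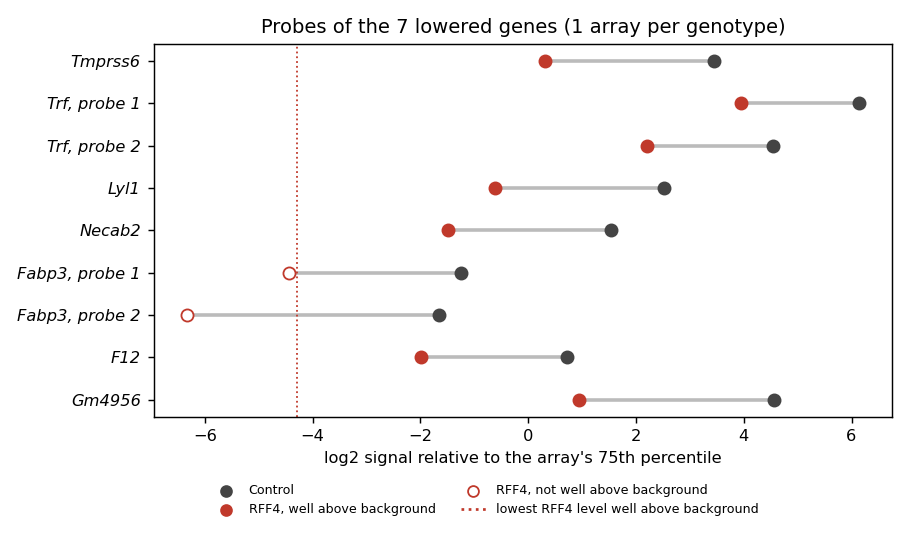
Log2 level of each of the 9 probes on the Control array (dark) and the RFF4 array (red), relative to each array's 75th percentile; probe 1 of Trf and Fabp3 is the brighter one, open points were not well above background and the dotted line is the lowest RFF4 level that was, −4.29. Every red point lies left of its dark point, and both open points belong to Fabp3, while distances along the axis between different probes carry no meaning.

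The median difference of the 7 genes was −3.05, and that of the 6 whose signal was well above background on each array was −3.08. More than 4-fold lower were 7 of the 7 genes, which follows from how they were chosen, beside 79 of all 13513 named genes with a difference (0.585%). More than 8-fold lower were 5 of the 7, among 14 genes in all, and this count depended on the processing. With normexp background correction Lyl1, Necab2 and Fabp3 fell short of 8-fold, at −2.89, −2.37 and −1.01. Necab2 did so with cyclic loess, at −2.91, and Fabp3 with the mean of all probes, at −2.84. With the spike-in controls set equal, F12 and Trf passed 8-fold as well, at −3.83 and −3.32. Among all falls, with each bound taken at its value, Gm4956 ranked 7, Lyl1 10, Tmprss6 11, Fabp3 12, Necab2 14, F12 22 and Trf 58. Fabp3 is itself a bound, so its rank is not exact, and other bounds make the remaining ranks inexact as well. Just past 4-fold lay Sorcs2 at −2.03, a sorting receptor gene, and just short of it Zfp692 at −1.99. The genes outside the 7 that were measured on both arrays and lay nearest to their median were Rgs9, a regulator of G protein signaling, at −3.03 and Atp8a2, a phospholipid flippase, at −3.00. This likeness rests on 1 difference between 2 arrays.

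**Figure D2:**
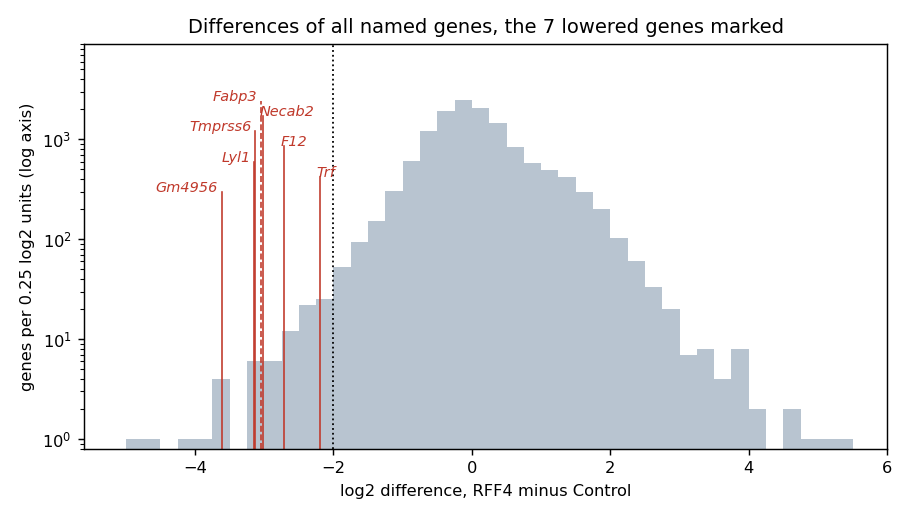
Number of named genes (log axis) by log2 difference, RFF4 minus Control, in steps of 0.25, with the brightest probe of each of the 7 genes as a red line (dashed where it is a bound) and the 4-fold line dotted. The lines run from −3.61 for Gm4956 to −2.19 for Trf, all left of the 4-fold line, while the bulk of the 13513 genes centers near 0.

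Where the spots lie on the slide was also examined. Over the gene spots within 5 rows and columns of each of the 9 probes, counting the 44 to 75 that passed the background call on each array, the median difference lay between −0.10 and 0.19. The 10-spot probes with an RFF4 level between −2.49 and 0, which spans Lyl1, Necab2 and F12, had a pooled spot SD of 0.099 over 67 probes and a highest SD of 0.18. This spread holds no variation between mice, and it does not cover the RFF4 levels of Fabp3, which lie below that range.

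The partners of Tmprss6 and Trf were read from a list of 33 iron genes, of which 26 had a difference. This list and the lists below leave out the lowered genes themselves, which makes their counts of lower genes smaller. Their median was −0.029, beside −0.015 over all genes. More than 2-fold lower was 1 of the 26 (3.85%), beside 5.05% of all genes, and more than 2-fold higher were 4, beside 12.3% of all genes. The lower one was Fbxl5, the iron sensor that marks iron-regulatory protein for degradation, at −1.17 from a level of 1.91 to 0.75. The higher ones were the plasma hemoglobin scavenger Hp at 1.89, the iron exporter Slc40a1 at 1.41, the ferroxidase Heph at 1.37 and the hemojuvelin receptor Neo1 at 1.05.

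The genes that work with Tmprss6 and Trf were read singly. In the hepcidin pathway, hemojuvelin (Hjv), which matriptase-2 cleaves, the upstream ligand gene Bmp6, the hepcidin gene Hamp and the second transferrin receptor gene Tfr2 were not well above background on either array. The transferrin receptor Tfrc differed by −0.072, from a level of 0.65 to 0.58, although 1 of its 3 probes gave 0.64. The ferritin heavy chain Fth1 differed by 0.44, and the endosomal ferrireductase Steap3 by 0.91 at its brighter probe and 1.56 at the other. Of these partners, 0 lay past the lower 2-fold line, and Slc40a1 alone lay past the upper one at its brightest probe.

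Of 20 other genes of membrane serine proteases and their inhibitors, 6 had a difference and the remaining 14 were not well above background on either array. The median of the 6 was 1.00, and 3 were more than 2-fold higher (12.3% of all genes) against 0 past 2-fold in the lower direction (5.05% of all genes). The 3 were Tmprss4 at 1.57, Spint1, a Kunitz inhibitor, at 1.44, and Tmprss2 at 1.09. St14, which encodes matriptase, the relative of matriptase-2 in epithelia, differed by 0.84 from a level of 1.30 to 2.14, and its inhibitor Spint2 by 0.90. Epithelial markers were also higher on the RFF4 array, 13 of 15 past 2-fold with a median of 1.59, and their part in the protease differences was not tested.

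The contact and coagulation list around F12 held 30 genes, of which 12 had a difference with a median of 0.55. More than 2-fold higher were 3 of the 12, beside 12.3% of all genes, and 0 lay past 2-fold in the lower direction, beside 5.05%. The proteins that factor XII works with in the contact pathway, plasma prekallikrein (Klkb1), high-molecular-weight kininogen (Kng1) and factor XI (F11), were not well above background on either array. The inhibitor of activated factor XII, Serping1, was higher at 1.23, from a level of −4.03 to −2.79, and C1qbp, whose product binds factor XII at cell surfaces, differed by −0.041. The other higher genes were Hgfac, the activator of hepatocyte growth factor, at 1.48 and Serpina5, protein C inhibitor, at least 3.74-fold higher, with levels of −6.96 and −3.61 and no Control signal well above background.

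Among 24 genes of bHLH factors and their partners, 15 had a difference with a median of 0.098. More than 2-fold higher were 3 of the 15 and past 2-fold in the lower direction 0, beside the 12.3% and 5.05% of all genes. The E proteins that pair with LYL1 differed by 0.32 for Tcf3 and −0.41 for Tcf12. The bridging partners Lmo2 and Ldb1 differed by 0.87 and −0.60. Tal1, the closest relative of LYL1, was not well above background on either array. The Id proteins, which sequester E proteins, differed by 1.46 for Id1, −0.30 for Id2 and 0.77 for Id3. The higher genes beside Id1 were the zinc finger factor gene Bcl11a at 1.58 and the homeobox gene Hhex at 1.06.

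The fatty acid list around Fabp3 held, by count, the most genes that were higher among the 6 pathway and family lists. By median the protease list was higher, at 1.00. Of its 29 genes, 23 had a difference with a median of 0.93, 11 were more than 2-fold higher (12.3% of all genes) and 0 lay past 2-fold in the lower direction (5.05% of all genes). Epithelial markers were higher on the same array, 13 of 15 more than 2-fold with a median of 1.59, and Fabp2 belongs to both lists. The part of the epithelial RNA in the differences of this list was not tested. The largest was Fabp6, the bile acid-binding protein of the ileum, which was 8.36-fold higher at 3.06. The intestinal carriers Fabp2 and Fabp1 were higher at 1.51 and 1.19, and the testis carrier Fabp12 at 1.24. Fabp12 was near the floor, with levels of −5.39 on the Control array and −4.15 on the RFF4 array. The lowest levels well above background were −5.51 and −4.29 on these arrays. The other Fabp12 probe was not well above background on either array. The retinol-binding proteins Rbp2 and Rbp7 were at 1.64 and 1.48. The regulators Ppargc1a, Ppara and Pparg were at 1.67, 1.45 and 1.30, and Cpt2, of mitochondrial fatty acid entry, was at 1.02. Ppara's 3 probes ranged from 0.88 to 1.45, and the second Cpt2 probe was at 0.83. Of the other partners, Fabp5, the carrier of many immune cells, differed by 0.49 and Cpt1a by −0.19, and Cd36 was not well above background on either array.

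The list around Necab2 held 8 genes, of which 5 had a difference with a median of 0.38. Past 2-fold in the lower direction were 0 of the 5, beside 5.05% of all genes, and 1 was more than 2-fold higher, beside 12.3%. This was Grm5, a glutamate receptor gene, at 1.39 from a level of −3.17 to −1.78. The other Grm5 probes were not well above background on either array. Necab3 differed by 0.38 and the adenosine receptor gene Adora2a, whose product binds NECAB2, by 0.20, while Necab1 was not well above background on either array.

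After setting the spike-in controls equal, every difference became lower and the median of all genes moved to −1.10. The medians of all 6 lists, −1.15 for the iron genes, −0.13 for the proteases, −0.42 for the contact genes, −1.03 for the bHLH genes, −0.20 for the fatty acid genes and −0.75 for the Necab list, then lay below 0, so their directions hold only relative to the other genes. The bHLH median was also below 0 with median scaling, at −0.077, and with normexp background correction, at −0.015. The iron median, near 0 to begin with, lay above 0 in 4 settings, by at most 0.023.

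**Figure D3:**
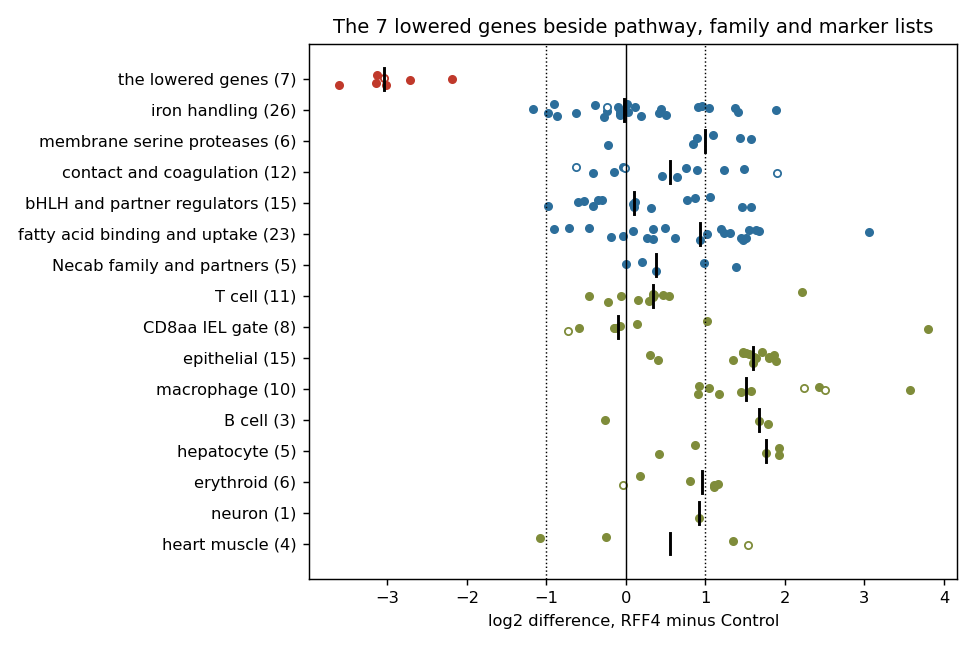
Log2 difference, RFF4 minus Control, of each gene with a difference (points; open where it is a bound), for the 7 lowered genes, the 6 pathway and family lists (blue) and the 9 marker lists (green), with the number of genes in parentheses, the median as a black bar and 2-fold lines dotted. The lowered genes lie between −3.61 and −2.19, where no list gene lies, and the lowest list gene is Fbxl5 at −1.17. The lists leave out the lowered genes themselves, so this gap follows in part from how the lists were made.

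Markers of the sorted cells and of other cell types were read on the same arrays. All 11 T cell markers passed the background call on each array, with a median difference of 0.34 and a summed level of 10.3 on the Control array and 10.6 on the RFF4 array. This median depended on the scaling, and quantile normalization turned it to −0.22, cyclic loess to 0.0079 and median scaling to 0.17. Cd3e, Cd3d and Cd3g differed by 0.35, 0.54 and 0.36. The list for the gate held 9 genes, of which 8 had a difference with a median of −0.10, from −0.72 for Cd8b1 to 3.80 for Thy1. Thy1 was thus 13.9-fold higher, with levels of 3.09 and 6.89, so the sorted cells were not alike in this marker. Its product is CD90, which the study's text reports on a larger share of these cells in Rbpj-/- mice. Cd8a differed by −0.070, and Cd8b1, for a chain that was gated out, was well above background on the Control array alone, at a level of −3.52. Cd4 was well above background on both, at levels of 1.67 and 1.80, although CD4+ cells were gated out, while its other probe was well above background on the Control array alone.

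Epithelial markers were higher on the RFF4 array. All 15 passed the background call on each array, and 13 were more than 2-fold higher (12.3% of all genes), with a median difference of 1.59 and a summed level of 7.80 on the Control array and 9.44 on the RFF4 array. Epcam, Vil1 and Krt8 differed by 0.40, 1.80 and 1.59. Of 11 macrophage markers 10 had a difference, 8 of them more than 2-fold higher, beside the same 12.3%. Of these 8, C1qa and C1qc are bounds because their Control signal was not well above background, and the 10 had a median of 1.51 and the list summed levels of 4.43 and 5.41. Csf1r, Adgre1 and Cd14 differed by 1.45, 1.04 and 1.57, although the other Csf1r probes gave 0.60 and 0.55.

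Tmprss6, Trf and F12 are best known from hepatocytes, Lyl1 from blood progenitors, Necab2 from neurons and Fabp3 from heart muscle, and markers of those cells were examined for that reason. Of 10 hepatocyte markers 5 had a difference, all above 0 with a median of 1.76, and Alb, Apoh, Ahsg, Fga and Fgb were not well above background on either array. The hepatocyte markers that were measured include Ttr at 1.92, Serpina1a at 1.76 and Apob at 1.92, and the summed levels of the list were 1.03 and 2.60. Epithelial markers were also higher on the RFF4 array, with a median of 1.59. Their part in the differences of the hepatocyte list was not tested. Of 10 erythroid markers 6 had a difference with a median of 0.96, among them Hba-a1 and Hbb-bs, 2.15-fold higher each, while Klf1 and Ank1 were among those not well above background on either array. Their summed levels were 4.98 and 6.08.

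Of 8 neuronal markers only Snap25 had a difference, at 0.92, and 6 were not well above background on either array, among them Syt1, Rbfox3 and Stmn2. The summed levels were 3.98 and 4.90. Of 8 heart muscle markers 4 had a difference with a median of 0.55, which was −0.25 over the 3 well above background on each array, without the bound of Tnnt2. Nppa was 2.12-fold lower at −1.08, Actc1 and Ryr2 were not well above background on either array, and Tnnt2 was at least 2.90-fold higher, with summed levels of 0.17 and 0.081. Of 7 B cell markers 3 had a difference, with a median of 1.68, summed levels of 4.69 and 5.83, and Cd79a and Pax5 not well above background on either array.

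The Control RNA, in which the 7 genes were higher, thus held lower epithelial and macrophage marker levels than the RFF4 RNA. Its level of Thy1, a marker within the sorted cells, was lower as well. The part of these in the differences was not tested. In RNA of sorted cells, fewer cells that express a gene and less RNA of it per cell cannot be told apart. With the spike-in controls set equal, the median of the T cell markers was −0.78, and those of the epithelial and macrophage markers were 0.47 and 0.38. The medians of the erythroid, neuronal and heart markers were then also below 0, at −0.17, −0.35 and −0.55.

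The genes beside the 7 on their chromosomes were read last, in the gene order of build GRCm38.p6. Of the 42 protein-coding neighbors, 3 on each side of each gene, 34 had a difference, with a median of 0.035. Past 2-fold in the lower direction was 1 of the 34, beside 5.05% of all genes, and 3 were more than 2-fold higher, beside 12.3%. The lower one was Slc38a8, an amino acid transporter gene next to Necab2, at −2.45 from a level of 1.90 to −0.54, both well above background. On the other side of Necab2 lay Osgin1 at −0.70, and beyond Slc38a8 lay Mbtps1 at −0.37. Slc38a8 is thus itself one of the 79 genes more than 4-fold lower. The choice to read neighbors was made with the results of these arrays known.

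Beside Tmprss6, Il2rb, which encodes the β chain of the IL-15 receptor on which IELs depend, had levels of 6.94 and 7.14 and a difference of 0.20. Beside Trf, Srprb differed by 0.15 at its brighter probe and −0.49 at the other. Beside Lyl1, Trmt1 differed by −0.029 at its brighter probe and −0.43 at the other, and Nfix by 0.99. Beside F12, Grk6 differed by −0.47 at its brighter probe and by −1.22, past 2-fold, at the other, and the next genes on that side, Prr7 and Dbn1, differed by −0.84 and −0.72. Beside Gm4956, the glutathione transferase gene Gsta3 differed by 0.94 at its brighter probe and was more than 2-fold higher at the other. The higher neighbors were Serinc2 at 1.54 and Tinagl1 at 1.46 near Fabp3, and Slc34a1 at 1.88 near F12.

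**Figure D4:**
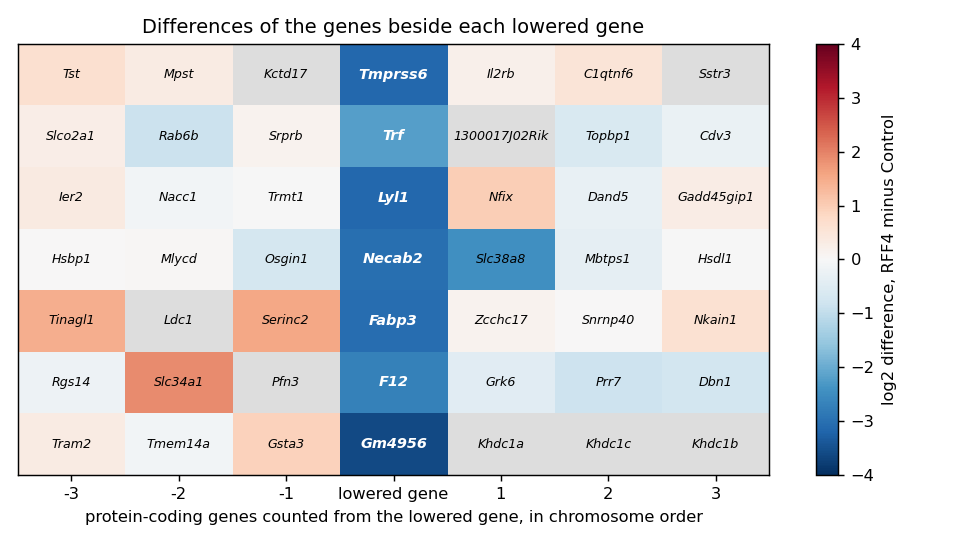
Log2 difference, RFF4 minus Control (color, red higher and blue lower), of each lowered gene (white letters) and of the 3 protein-coding genes on each side of it in chromosome order, with gray for genes without a difference. Apart from the center column, Slc38a8 beside Necab2 is the only neighbor more than 2-fold lower at its brightest probe, at −2.45.

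The processing changed the size of the differences more than their direction. Under the 10 alternative settings the difference of Gm4956 ranged from −4.74 to −3.58, that of Tmprss6 from −4.26 to −3.05, and that of Lyl1 from −4.27 to −2.89. Necab2 ranged from −4.15 to −2.37, Trf from −3.32 to −2.19 and F12 from −3.83 to −1.85. Fabp3 ranged from −4.17 to −1.01 under the 9 settings that give it a value. All of these lay below 0, and the lowest of each was the value with the spike-in controls set equal.

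**Figure D5:**
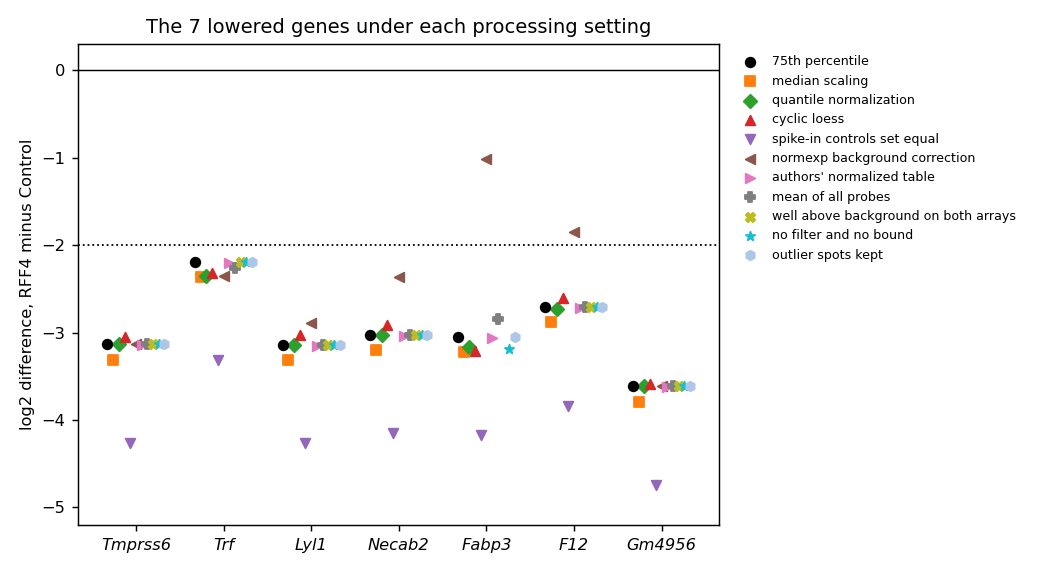
Log2 difference, RFF4 minus Control, of each of the 7 genes under the 75th percentile scaling (black) and each alternative setting (other symbols), with the 4-fold line dotted. Normexp background correction alone lifts 2 genes above the 4-fold line, F12 to −1.85 and Fabp3 to −1.01, and every setting leaves all 7 below 0.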

How the data were processed

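RNA of sorted IELs was hybridized to 2 single-color Agilent arrays, 1 per genotype, on the same slide and in the same scan. The authors deposited scanner output of Agilent Feature Extraction 10.7.1.1, whose intensity values are background-subtracted, linear and not normalized between arrays, and a normalized table, for which the methods name GeneSpring. Of its 62976 lines, 55821 hold log2 values centered per probe and were used, 924 repeat a probe, nearly all on another scale, and 6231 have no value. Log2 intensities were scaled to the 75th percentile of each array over gene spots. Spots of a probe were averaged without control spots and outliers, and a probe passed the background call where 50% or more of its spots passed. Probes were named through RefSeq accessions (27509 of 55679 matched), and a gene took its brightest probe. The array design is of another build than RefSeq's table, so no probe coordinates were used.

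The members and lists were chosen with earlier results of these data known. The text names the 7 genes with every probe, partners and list genes past 2-fold, up to 3 genes per marker list and reference genes. CANNTG was added after the RBPJ motif had been searched. Other marker genes are named where their level bears on the result. The alternatives were median scaling, quantile normalization, cyclic loess, spike-in controls set equal (8 probes), normexp with an offset of 50, the normalized table, the mean of all probes, only genes that passed the background call on each array, neither filter nor bound, and outlier spots kept. Values of a few list genes are not reported here. Steps were tested on simulated data. The tools were R 4.3.3 with limma 3.58.1, and numpy 2.4.6, pandas 2.3.3 and matplotlib 3.10.9 under Python 3.11.15.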

Additional observations from a re-analysis of the deposited data

How the results depend on the processing

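No paired analysis was possible because each genotype has 1 array, and no replicate could be left out. The median difference of the 7 genes, −3.05, was −3.22 with median scaling, −4.17 with the spike-in controls set equal and −2.37 with normexp background correction, and stayed within the technical SD, 0.16, in the other 7 settings. The number of the 7 more than 4-fold lower stayed at 7, except for 5 with normexp and 6 of 6 where a gene had to be well above background on both arrays, which left Fabp3 without a value. Over all genes, those more than 4-fold lower were 948 with the spike-in controls set equal, 34 with normexp and 154 with no filter and no bound. Those more than 2-fold lower were 1087 with median scaling and 8092 with the spike-in controls, and those more than 2-fold higher were 198 with the spike-in controls and 6272 with no filter and no bound. The median of all genes moved to −0.18 with median scaling, −1.10 with the spike-in controls and 0.25 with no filter and no bound. The differences of the 7 genes kept their sign in every setting that gives them a value, while medians of lists and of all genes changed sign between settings. The cause of these shifts was not tested. Signal over background limits Fabp3 most, then F12 and Necab2.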
